A study of Mus musculus with 48 samples.

Results

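Translation initiation and elongation factors are the proteins that bring ribosomes to messenger RNA and move them along it. Their genes were taken by symbol: every mouse gene whose GENCODE name begins with Eif or Eef and a digit, leaving out the eIF2α kinases, the 4E-BPs, Eef2k and the Eef1a lysine methyltransferases. The rule found 66 of 20622 genes in the cytoplasmic RNA data. Of these, 61 had a transcript among the 16269 to which ribosome-protected fragments (RPFs, mRNA pieces that a ribosome covered) were assigned; Eif4a3l1, Eif1ad3, Eif1ad6, Eif1ad7 and Eif1ad15 had none. By the letter of its name the set also holds Eef2kmt, a methyltransferase that modifies eEF2, and Eef1ece2, which had almost no reads. After removal of genes with low counts, 54 members could be tested in RPFs, 55 to 57 in RNA and 52 or 53 in translation efficiency (TE, RPF counts relative to RNA counts of the same mouse).

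The data came from livers of 24 male mice aged 2 to 4 months, 3 in each of 8 groups, with an RPF and a cytoplasmic RNA library from every mouse. The genotypes were wild-type (WT), Ctnnb1ex3/+ (B), in which removal of exon 3 stabilises β-catenin, R26-LSL-MYC (M), in which Cre switches on a MYC transgene, and both alleles together (BM). All mice, WT included, received the virus AAV8.TBG.PI.Cre.rBG, whose TBG promoter expresses Cre in hepatocytes only, so the other cells of each liver kept unrecombined alleles. Livers were taken 4 or 10 days later, with all mice harvested at the same time, and the comparisons ask how active β-catenin, MYC and their combination alter translation in hepatocytes. Each genotype was set against WT mice of the same day, so the comparisons of 1 day share their 3 WT mice, and BM was also set against M on day 4.

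Initiation starts when eIF2 carries the initiator tRNA to the small ribosomal subunit, helped by eIF1, eIF1A and eIF3, while eIF2B recharges eIF2 with GTP. The cap-binding protein eIF4E, the scaffold eIF4G and the helicase eIF4A bring this complex to the mRNA 5′ end, and eIF5 and eIF5B join the large subunit. In elongation eEF1A delivers aminoacyl-tRNAs, the eEF1B subunits recharge eEF1A, eEF2 moves the ribosome by a codon and eIF5A, which carries hypusine, relieves stalled ribosomes. MYC is a transcription factor long known to act on genes of the translation machinery through the E-box CACGTG, and many elongation factor and ribosomal protein mRNAs begin with a 5′ terminal oligopyrimidine (TOP) tract, through which mTORC1 and LARP1 control their translation.

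Because the M and BM mice carry MYC, promoters of member genes were searched for the letters CACGTG, which read the same on both strands. In RefSeq promoters (GRCm38.p6, 250 bases before to 50 after each start), 11 of 45 matched member genes had it (24.4%), against 8.09% of 27025 genes. Windows of 30 bases are shown for 5 members whose values are described below, on the strand of the gene and 5′ to 3′, with the E-box in capitals. They lie at chr11:69672595-69672624 on the minus strand for Eif4a1, chr11:69920791-69920820 on the minus strand for Eif5a, chr3:138527192-138527221 on the plus strand for Eif4e, chr7:108934335-108934364 on the plus strand for Eif3f and chr10:81176576-81176605 on the plus strand for Eef2, all upstream of the annotated start.
Eif4a1: cgatcgcctccgCACGTGtaaaggtgctgg
Eif5a: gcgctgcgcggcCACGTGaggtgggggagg
Eif4e: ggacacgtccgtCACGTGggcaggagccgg
Eif3f: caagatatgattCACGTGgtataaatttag
Eef2: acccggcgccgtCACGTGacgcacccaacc
A match of letters is not a binding site, and no difference between members with and without it was tested. In RPFs on day 4, 4 of the 10 tested members with the motif and 9 of the 31 without it were higher than WT in M (18.5% of all genes), and 6 of 10 and 18 of 31 in BM (26.2%). On day 10 these were 2 of 10 and 5 of 31 in M (10.6%) and 4 of 10 and 18 of 31 in BM (24.5%). In RNA on day 4, 5 of 10 with the motif and 7 of 34 without it were higher in M (13.5% of all genes) and 5 of 10 and 14 of 34 in BM (21.3%), and on day 10, 6 of 10 and 12 of 34 in M (8.53%) and 7 of 10 and 24 of 34 in BM (22.9%).

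RPF libraries held 9742197 to 14380713 counts and RNA libraries 3254141 to 6540116. Glul, a β-catenin target, had 1629 to 5185 RPF CPM (counts scaled to a fixed library total) in B and BM mice and 511 to 862 in WT, and Myc had 43.6 to 164 RPF CPM in M and BM mice and 2.43 to 18.3 in WT, although Myc RNA overlapped between all genotypes (19.6 to 53.0 CPM). The summed RNA of the hepatocyte marker list was 77020 to 88350 CPM in WT. On day 4 it was 59800 to 77620 in B, 47640 to 65090 in M and 29200 to 36780 in BM, and on day 10 29870 to 35220, 36630 to 45020 and 29320 to 40470. In contrast, the Kupffer, endothelial, stellate, cholangiocyte and blood lists each summed to at most 597 CPM, with Cd3e and Cd79a at 3 counts or fewer in most groups. Some of these lists moved with genotype: in BM on day 4, Kupffer markers summed to 119.8 to 142 CPM (265 to 330 in WT), stellate markers to 203 to 258 (378 to 407) and endothelial markers to 227 to 266 (361 to 377), with all 6 genes of each list above 3 counts. Blood markers summed to 124 to 184 in BM and 175 to 232 in M on day 4, against 291 to 305 in WT. In M on day 4, stellate markers summed to 284 to 341 and endothelial markers to 248 to 336 CPM, both below WT. On day 10 the stellate list was 208 to 249.8 CPM in B, 316 to 349.8 in M and 194 to 223 in BM, against 421 to 485 in WT. The endothelial list was 295 to 356 in B, 272 to 314 in M and 249 to 304 in BM, against 398 to 427 in WT. The Kupffer list on day 10 was 320 to 364 in BM and 266 to 317 in WT. Blood markers on day 10 summed to 188 to 296 in M and 304 to 486 in WT. In B on day 4, Kupffer markers summed to 200 to 233 and endothelial markers to 328 to 348 CPM, both below WT. The part of these shifts in the results on the factor genes was not tested. In such bulk tissue, fewer cells of a type and less RNA per cell cannot be told apart. M mouse 3 and BM mouse 1 on day 10 were picked after their values were seen, and the following counts were made for them alone. In M mouse 3, RPFs of 6 members were more than 2 times those of both other mice of its group. In BM mouse 1, RPFs of 4 members were, and those of 3 were under 0.5 times both others. RNA of 0 members was so far apart in either. The day 10 counts of RPF and TE calls among the members are given with and without these mice.

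In WT livers on day 4, ribosome occupancy per length was highest for Eif1, the start-codon selection factor, at 1875 ± 100 RPF CPM per kb of coding sequence (SD, n = 3). Eef1a1 followed at 1376 ± 375, Eif5a at 1013 ± 51.4, Eif4a1 at 420 ± 21.9, Eif4h at 252 ± 5.44 and Eef2 at 208 ± 60.1. In these 3 mice the order of the first 3 genes held narrowly: the highest Eef1a1 value was 1791 and the lowest Eif1 value 1794, while the lowest Eef1a1 value was 1063 and the highest Eif5a value 1056. The 13 measured eIF3 subunits, which form 1 complex, lay within a 2.36-fold range, from 60.3 for Eif3f to 142 for Eif3c. The 5 eIF2B subunits were lower, from 16.5 for Eif2b3 to 38.5 for Eif2b4. Eef1a2, Eif4e1b and Eif3j1 had 0 RPFs in these mice, and Eif3j1 shares nearly all of its coding sequence with Eif3j2, to which the reads were assigned. Eef1a1 and Eif1 stood in the other order in WT on day 10, at 2504 to 2874 and 1720.5 to 1846 RPF CPM per kb.

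On day 4, more factor genes rose than fell in the mice with MYC, while 1 was called with β-catenin alone. All members together took 0.663% ± 0.0522 of RPF counts in WT (SD, n = 3), 0.683% ± 0.0259 in B, 0.833% ± 0.0379 in M and 1.09% ± 0.0327 in BM. These are shares of library totals, without the scaling between libraries (TMM) used for CPM. The scaling factors on day 4 were lowest in WT and highest in BM, so the shares overstate the rise over WT in scaled counts. By edgeR's quasi-likelihood F test, with p-values adjusted by Benjamini-Hochberg over all genes (adjusted p under 0.1), 17 of 54 members rose and 3 fell in M, where 18.5% of all tested genes rose and 14.7% fell. In BM 29 rose and 3 fell, against 26.2% and 24.7% of all genes, and the median log2 change was 0.22 for members and -0.00 for all genes. In B 0 rose and 1 fell, Eif3j2 (6.21% of all genes rose and 6.26% fell), with 3 members at an unadjusted p under 0.05. That lone call in B was lost in DESeq2 and without any one of WT mice 1 to 3 or B mouse 3.

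**Figure D1:**
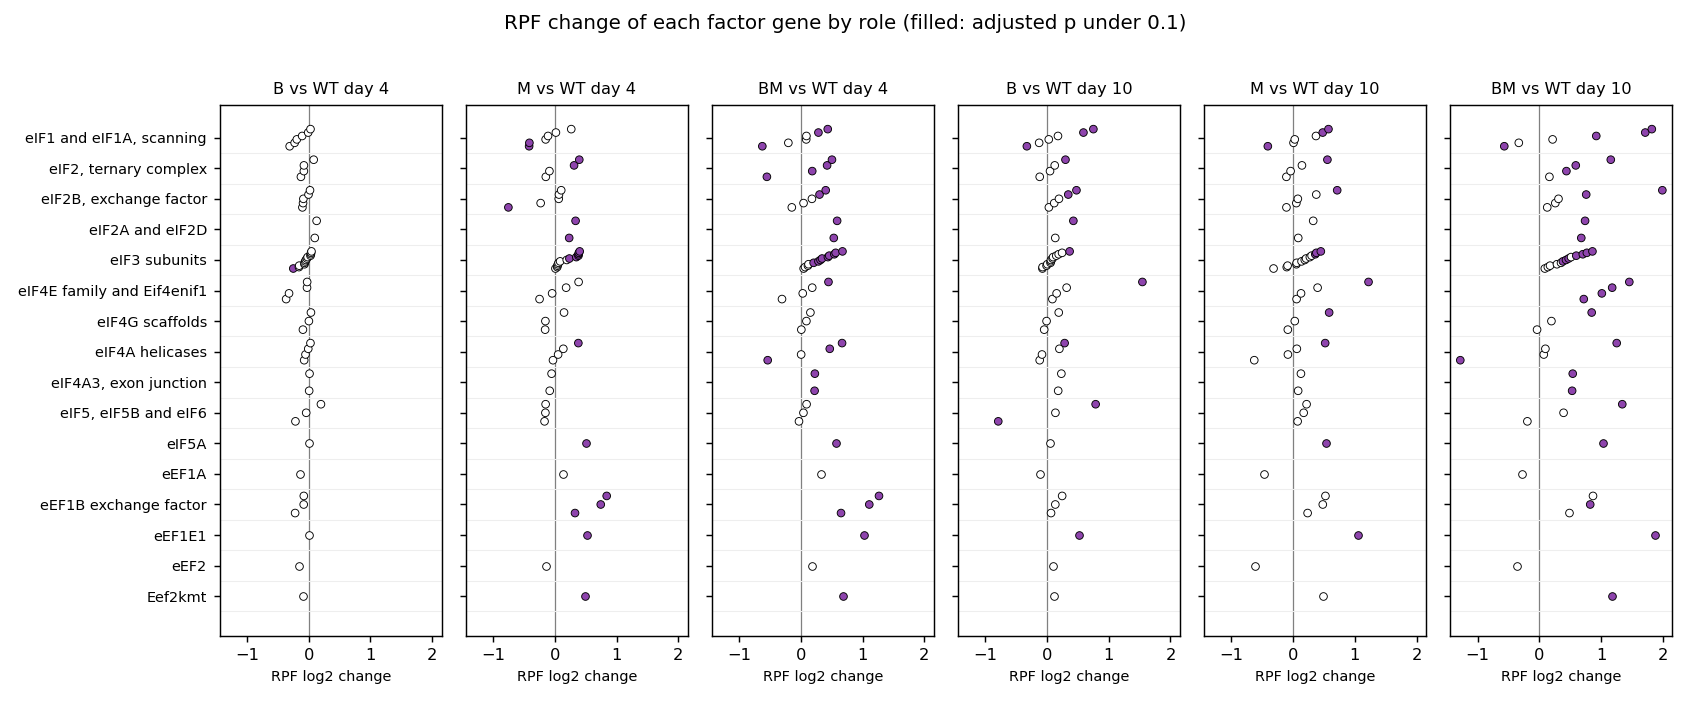
RPF log2 change of each tested factor gene (x axis, no unit) against WT of the same day, one panel per comparison and one row per role. Filled points passed an adjusted p of 0.1; nearly all points of B on day 4 sit around 0, whereas the eEF1B and eIF3 rows lie to the right of 0 in M and BM on day 4.

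The elongation exchange factor eEF1B showed the largest rises on day 4. RPFs of its α subunit gene Eef1b2 were 56.1, 49.0 and 74.3 CPM in the WT mice, 113, 90.7 and 111 in M and 138, 159 and 127 in BM. Every M mouse was above every WT mouse and every BM mouse above every M mouse. The log2 change was 0.84 ± 0.15 (SE; adjusted p = 0.0024) in M and 1.27 ± 0.14 (adjusted p = 3.7e-05) in BM. Its γ subunit gene Eef1g measured 69.2, 66.3 and 84.8 CPM in WT, 130, 107 and 124 in M and 164, 160 and 143 in BM, with the same order and no overlap. Its rise in BM was 2.15-fold (log2 1.11 ± 0.10, adjusted p = 1.0e-05). Eef1d, the δ subunit, rose in BM by 0.65 ± 0.08 on the log2 scale. Eef1e1, which despite its name is a scaffold of the multi-synthetase complex, had 14.1, 10.8 and 11.2 CPM in WT, 16.5, 17.0 and 17.6 in M and 24.7, 23.8 and 23.9 in BM. It thus rose by 0.53 ± 0.13 and 1.02 ± 0.12, again without overlap between the 3 groups.

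Unlike their exchange factor, Eef1a1 and Eef2, which encode the elongation factors themselves, did not pass the test in RPFs. Eef2 RPFs were 484, 389 and 682 CPM in WT, 476, 377 and 523 in M and 453, 741 and 545 in BM on day 4, and the groups overlapped throughout. Eef1a1 ranged from 1381 to 2327 CPM in WT and from 1900 to 2722 in BM (log2 0.33, not called). Their RNA did pass. Eef1a1 RNA was 6205, 6785 and 6176 CPM in WT, 9404, 8823 and 9289 in M (0.52 ± 0.11) and 7646, 8425 and 7891 in BM (0.32 ± 0.12, lost without WT mouse 1, WT mouse 3 or BM mouse 3), with no overlap. Eef2 RNA was 1452, 1613 and 1279 CPM in WT and 1912, 2159 and 1725 in M (0.42 ± 0.11, lost without WT mouse 3), and was not called in BM. Eif5a did rise: 386, 396 and 359 CPM in WT stood against 584, 497 and 505 in M and 603, 533 and 531 in BM. M and BM lay entirely above WT but overlapped each other, and the changes were 0.51 ± 0.08 and 0.57 ± 0.08. Eef2kmt measured 6.62 to 7.91 CPM in WT and 10.6 to 12.3 in BM (0.69 ± 0.14).

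In the eIF3 complex on day 4, 6 of 13 tested subunits rose in M (18.5% of all genes) and 9 in BM (26.2%), 0 fell, and all 13 fitted values were above 0 in both. Eif3a, the largest scaffold subunit, had 240, 209 and 289 RPF CPM in WT and 397, 406 and 355 in BM, with no overlap (0.67 ± 0.11, adjusted p = 0.0007). Eif3b, Eif3e, Eif3k and Eif3l rose by 0.44 to 0.56. Eif3c, the most occupied subunit in WT, stayed between 374 and 378 CPM in WT and between 382 and 394 in BM and was not called.

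Of the eIF4 genes, the helicase Eif4a1 rose in both genotypes, from 475, 451 and 500 CPM in WT to 618, 565 and 633 in M and 789, 746 and 692 in BM. The 3 groups did not overlap, and the changes were 0.38 ± 0.08 and 0.67 ± 0.08. Its cofactor Eif4b rose in BM by 0.47 ± 0.11. The scaffold Eif4g1 was not called against WT (348 to 407 CPM in WT, 391 to 425 in BM), and neither were Eif4g2 and Eif4g3. The cap-binding gene Eif4e had 16.8, 17.1 and 16.4 CPM in WT and 29.6, 17.4 and 20.5 in BM. Its call in BM (0.45 ± 0.17, adjusted p = 0.056) was lost when WT mouse 1, WT mouse 3 or BM mouse 1 was omitted, in the last case with a change of 0.20, and its RPFs were counted on a short transcript with 240 coding bases that held 31.6% of the gene's TPM (transcript abundance, as RSEM gives it). Eif4e2, which binds the cap and can repress translation, was not called on day 4 (31.1 to 33.7 CPM in WT, 35.5 to 36.4 in BM).

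The eIF2 module split. Eif2s1, which encodes the α subunit phosphorylated in stress, had 79.6, 82.9 and 81.7 CPM in WT, 98.8, 100.2 and 97.3 in M and 122, 101 and 100.2 in BM, with WT below M and BM (0.31 ± 0.07 in M, 0.42 ± 0.09 in BM). Eif2s3x, the X-linked γ subunit, rose by 0.50 ± 0.07 in BM. Its Y-linked paralogue Eif2s3y fell by 0.55 on the log2 scale (SE 0.08): 86.9, 87.3 and 78.2 CPM in WT, 57.9, 56.5 and 54.9 in BM, with M between at 70.4 to 78.4. The other initiator tRNA factors Eif2a and Eif2d rose in BM by 0.53 ± 0.10 and 0.59 ± 0.09. Eif2s2, the β subunit, rose slightly in BM, by 0.18 ± 0.08, a call lost in DESeq2 and when any mouse but BM mouse 3 was omitted.

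The members that fell were few. Eif2b4, the δ subunit of eIF2B, fell in M on day 4 and was not called in B or BM: 71.1, 49.7 and 57.5 CPM in WT, 34.6, 35.2 and 33.9 in M and 55.4, 49.5 and 53.8 in BM. M lay below every other mouse of that day, with a log2 change of -0.75 ± 0.12, and the direct comparison of BM with M was +0.60 ± 0.07 (adjusted p = 0.00038). Eif2b4 RNA showed the same fall in M (-0.78 ± 0.14). Eif1b, a paralogue of Eif1, fell in M, with 18.4 to 23.6 CPM in WT and 13.9 to 17.2 in M (-0.42 ± 0.13), a call lost without WT mouse 1 or M mouse 1. Eif1 itself fell in both: 465, 501 and 452 CPM in WT, 356, 336 and 349 in M and 272, 330 and 300 in BM, without overlap between the groups, by 0.41 ± 0.07 and 0.63 ± 0.09 on the log2 scale.

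**Figure D2:**
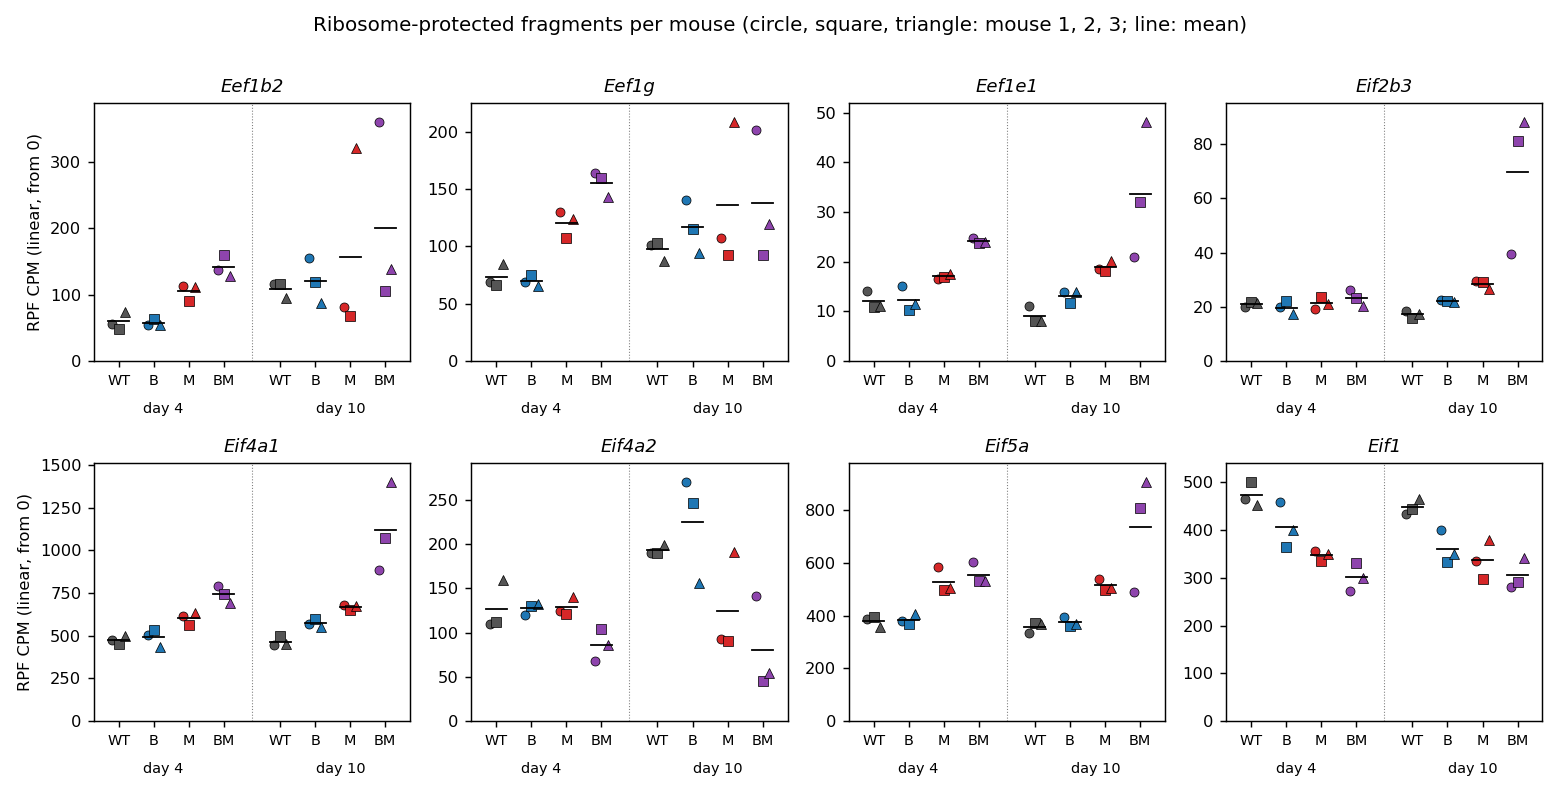
RPF CPM (y axes, linear from 0) of 8 factor genes in each mouse by genotype and day; symbols mark mice 1, 2 and 3 and lines the mean of 3. Eef1e1 and Eif4a1 climb from WT through M to BM on both days, Eif1 descends, and on day 10 M mouse 3 and BM mouse 1 sit far from the other mice for Eef1b2 and Eef1g.

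The combination differed from MYC alone on day 4. BM exceeded M in RPFs of 25 of 54 members and was lower in 3, where 18.8% of all genes were higher and 19.3% lower, with a member median of 0.19. Those higher included Eef1e1 (0.49 ± 0.09), Eef1b2 (0.42 ± 0.11), Eif4g1 (0.30 ± 0.08) and 4 of the 5 eIF2B genes, all but Eif2b3. Those lower were Eif4a2 (-0.60 ± 0.14), Eif2s3y (-0.41 ± 0.07) and Eif1 (-0.22 ± 0.09), the last lost when any mouse but BM mouse 2 was omitted. The total of 28 fell to 18 when M mouse 1 was omitted, to 17 for M mouse 2, and to 19 in DESeq2. In RNA, 5 of 56 members were higher and 3 lower (14.6% and 15.9% of all genes), with a member median of 0.07. There 3 or 4 in all passed without M mouse 1, M mouse 2 or BM mouse 1. RNA was sequenced less deeply, and the part of depth in this difference was not tested.

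On day 10, B alone also changed some members, and BM changed most. RPF changes here are relative to the other genes of a library, so they cannot show a change in all RPFs together. The paper describes a global fall of ribosome occupancy in BM livers on day 10. In B 11 of 54 members rose and 2 fell (13.1% and 12.1% of all genes), in M 12 rose and 1 fell (10.6% and 8.8%), and in BM 30 rose and 2 fell (24.5% and 22.3%), with a member median of 0.52 in BM against 0.03 for all genes. Omitting WT mouse 3 took the 13 calls in B to 4, omitting B mouse 2 to 5, B mouse 1 to 7 and either other WT mouse to 8. For the 13 calls in M, omitting WT mouse 3 or M mouse 1 left 7 and omitting WT mouse 1 left 8, whereas omitting M mouse 3 gave 24 (15 higher, 9 lower; 24.5% of all genes in either direction). Without BM mouse 1 the 32 calls in BM remained and 10 were added (37 higher and 5 lower in all), but 66.3% of all genes were then called.

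Eif2b3, the γ subunit of eIF2B, had the largest RPF rise in BM on day 10. It measured 18.5, 15.9 and 17.5 CPM in WT, 22.4, 22.3 and 21.9 in B, 29.6, 29.1 and 26.5 in M and 39.5, 81.2 and 88.0 in BM, so the 4 genotypes formed separate steps. The rise in BM was 3.98-fold (log2 1.99 ± 0.30, adjusted p = 0.0025), and its RNA rose alongside (1.597 ± 0.268). On day 4 the gene had not been called in any genotype. Eef1e1 reached 20.9, 32.1 and 48.1 CPM in BM from 11.2, 7.98 and 8.05 in WT (1.87 ± 0.32), and M lay between at 18.1 to 20.2. Eif1a (1.72 ± 0.36) and Eif1ad2 (1.82 ± 0.35) also rose in BM, but 39% of the 33-base windows in the Eif1a coding sequence and 100% of those in Eif1ad2 also occur in other genes of the RNA table, so their counts are uncertain.

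Eif6, which keeps ribosomal subunits apart, was one of the members that β-catenin alone changed. Its RPFs were 44.9, 41.9 and 42.9 CPM in WT, 79.9, 80.9 and 65.9 in B, 49.3, 50.6 and 51.2 in M and 106, 103 and 123 in BM on day 10. B and BM stood clear of WT, by 0.79 ± 0.11 and 1.34 ± 0.14 on the log2 scale, and M was not called. On day 4 all mice lay between 39.6 and 58.1 CPM, and B, M and BM each overlapped WT. Every BM mouse (51.4 to 56.8) was above every M mouse (39.6 to 50.5). Eif5, the GTPase activator of eIF2, went the other way in B (41.5, 38.7 and 79.4 CPM against 86.9, 71.1 and 117 in WT; -0.79 ± 0.29, adjusted p = 0.090), with overlap between the groups, a call that was lost without WT mouse 1 or 3 or B mouse 1 or 2 (-0.84 to -0.59), and mice of M and BM scattered from 30.8 to 134.

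The 3 tested cap-binding genes, Eif4e, Eif4e2 and Eif4e3, rose in BM on day 10, and so did Eif4enif1, which encodes a transport protein that binds eIF4E (0.72 ± 0.18), where 24.5% of all genes rose. Eif4e2 had 37.3, 32.4 and 32.8 CPM in WT and 66.7, 75.3 and 92.8 in BM, with no overlap (2.27-fold). Eif4e went from 12.0, 15.5 and 16.9 to 17.8, 33.5 and 39.3 CPM (1.01 ± 0.30), and the lowest BM mouse was just above the highest WT mouse; this call was lost without WT mouse 1 (0.87). Eif4e3 rose in B, M and BM by 1.22 to 1.55, but at 1.14 to 5.44 RPF CPM on that day it had few RPFs. Eif2s1 reached 124, 184 and 199 CPM in BM from 73.0, 77.0 and 74.5 (1.16 ± 0.20), and Eif5a 489, 809 and 907 from 334, 371 and 368 (1.03 ± 0.24), all above WT. In Eif4e, Eif4e2, Eif2s1 and Eif5a, BM mouse 1 was the lowest of its group. In the eIF3 complex 7 of 13 subunits rose in BM and 0 fell (24.5% and 22.3% of all genes), or 8 and 0 without BM mouse 1, when 66.3% of all genes were called, and 4 rose when WT mouse 1, WT mouse 3 or BM mouse 3 was omitted. The spread of occupancy between subunits was 1.62-fold, from 113 to 182 CPM per kb.

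The paralogous helicases Eif4a1 and Eif4a2 moved apart. Eif4a1 had 447, 495 and 452 RPF CPM in WT and 886, 1071 and 1400 in BM on day 10, a 2.39-fold rise with no overlap. Eif4a2 had 190, 190 and 199 CPM in WT and 141, 44.7 and 54.5 in BM, a fall to 0.412-fold (log2 -1.28 ± 0.40, adjusted p = 0.039), again with no overlap. Per kb of counted sequence, RPFs of Eif4a1 were 2.28 to 2.62 times those of Eif4a2 in WT on day 10 and 6.29, 24.0 and 25.7 times in BM. This ratio was 7.34, 7.21 and 3.51 in M and 2.11, 2.43 and 3.53 in B on that day. On day 4 Eif4a2 RPFs were 110, 112 and 159 CPM in WT and 67.2, 104 and 85.7 in BM, without overlap, and fell by 0.54 on the log2 scale (SE 0.17), a call lost without WT mouse 3 (-0.34). The ratio was then 3.15 to 4.35 in WT, 4.52 to 4.99 in M and 7.17 to 11.8 in BM. In RNA, as a ratio of TPM, it was 2.68 to 3.38 in WT over both days, 4.45 to 4.80 in BM on day 4 and 8.58 to 9.28 in BM on day 10. The RNA ratio in M on day 10 was 3.35 to 4.12. Eif4a2 RNA fell in BM by 0.25 ± 0.10 on day 4 and by 0.43 ± 0.13 on day 10 (calls lost without WT mouse 3 or BM mouse 2 on either day, and on day 4 also when WT mouse 2 or either other BM mouse was omitted), while Eif4a1 RNA rose by 0.36 ± 0.09 and 1.15 ± 0.15. Other genes of the reference share 98.7% of the 33-base windows of Eif4a1, but of these only Gsr, the glutathione reductase gene, with 2.61%, was in the RNA table. The exon junction helicase Eif4a3 rose in BM by 0.23 ± 0.09 on day 4 and 0.53 ± 0.20 on day 10, calls that several omitted mice removed (lowest values 0.16 and 0.40), and 39.7% of its 33-base windows occur in other genes of the RNA table, so its counts are uncertain.

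Most RPF calls in BM came with an RNA call of the same gene. On day 4, 16 of 56 members rose and 1 fell in M (13.5% and 10.3% of all genes) and 24 of 55 rose and 2 fell in BM (21.3% and 20.6%). In B 0 of 56 passed in edgeR or DESeq2 (4.41% of all genes rose and 3.73% fell in edgeR), with 1 at an unadjusted p under 0.05. On day 10, 7 of 56 rose in B and 0 fell (8.14% and 7.48%), 25 of 57 rose in M and 0 fell (8.53% and 7.12%), and 39 of 57 rose and 1 fell in BM (22.9% and 22.8%). The count in B was 4 without WT mouse 1 or 3, and that in M was 15, 14 and 10 when WT mouse 3, M mouse 2 or M mouse 1, in this order, was omitted. All 14 eIF3 genes rose in BM RNA on day 10, with a median of 0.71. These include Eif3j1 and Eif3j2, which share nearly all of their coding sequence, so their separate counts are uncertain. Among 52 members tested on both levels in BM on day 4, 22 passed in both, 9 in RPFs only, 3 in RNA only and 0 in opposite directions. Among 53 on day 10, 29 passed in both, 2 in RPFs only and 10 in RNA only, and of the 29, Eif1 moved in opposite directions.

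**Figure D3:**
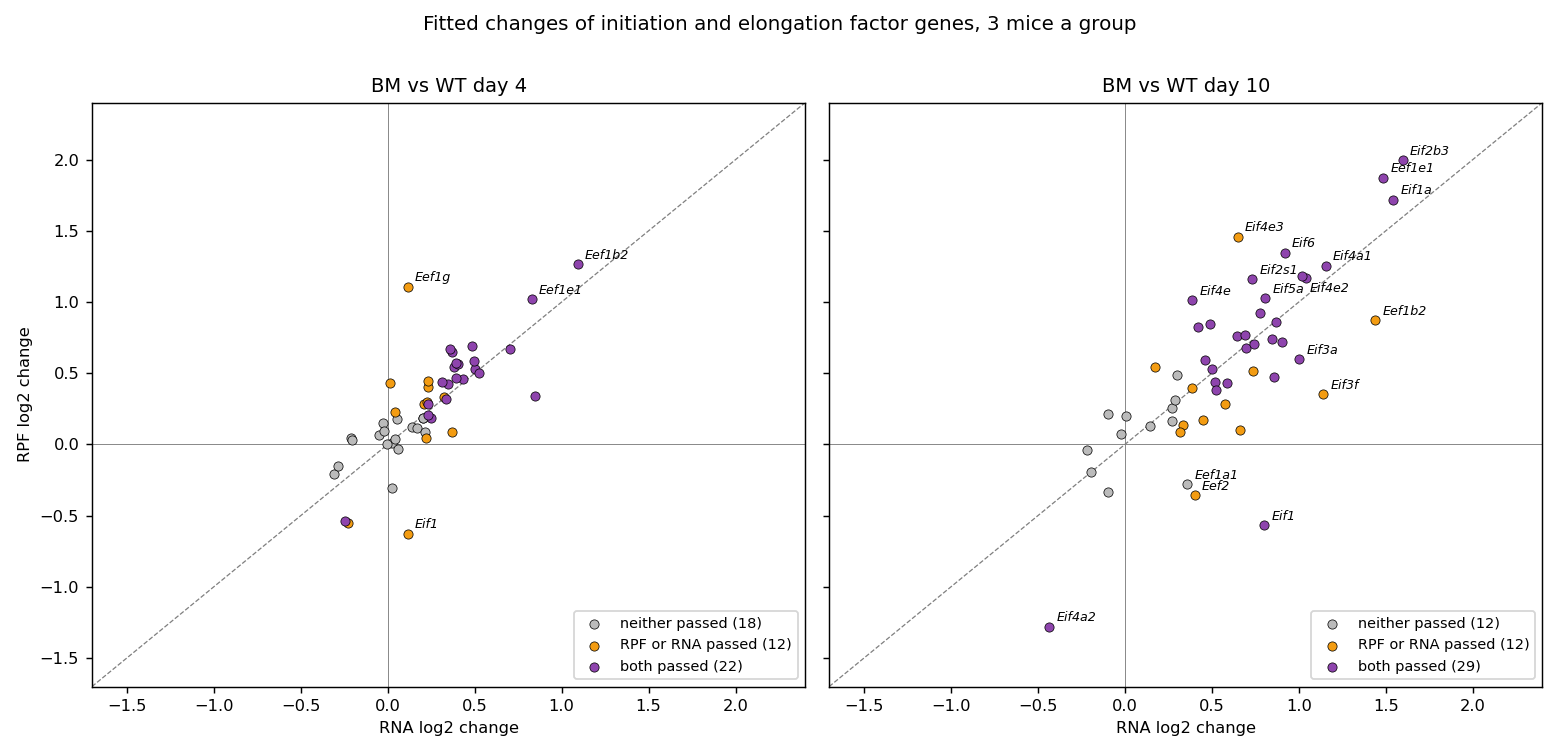
RPF log2 change (y axis) against RNA log2 change (x axis) of factor genes in BM relative to WT on day 4 (left) and day 10 (right), coloured by whether 1, both or neither passed; the dashed line marks equal change. Most points lie near the line, with Eef1g above it on day 4 and Eif1 below it on both days.

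TE calls were rare among the members: 1 of 53 in M on day 4 (0.971% of all genes), 2 of 52 in BM on day 4 (2.23%) and 1 of 53 in BM on day 10 (0.259%). The remaining comparisons gave 0 in edgeR: B on day 4 (0.0488% of all genes; 1 member at an unadjusted p under 0.05), B on day 10 (0.0564%; 1), M on day 10 (0.0%; 4) and BM against M on day 4 (0.0943%; 7). DESeq2 called 1 of these, Eif1 in B on day 10. With the mouse as a block, since both libraries came from the same animal, more genes passed in general. The member counts were then 3 in M (2.65% of all genes) and 4 in BM (6.17%) on day 4, 2 in B (2.6%) and 2 in BM (5.21%) on day 10, and 7 of 53 in BM against M (2.12%). They were 0 in B on day 4 (0.274%), in M on day 10 (0.325%) and in the differences between days 10 and 4 for M (0.00924%) and BM (1.87%). Eif3f was called in the first 4 of these, with TE changes of -0.65, -0.50, -0.52 and -0.89 under the block; Eif4a1 was added in BM on day 4 (0.30). The 7 in BM against M were higher in BM, namely Eef2 (0.51), Eef1d (0.48), Eef1g (0.38), Eef1a1 (0.38), Eef1b2 (0.36), Eif4b (0.32) and the Eif4a3 copy Eif4a3l2 (1.19). The last is uncertain, since 74.4% of the windows of Eif4a3l2 occur in other genes of the RNA table and its TE was 7.16 to 30.2 in the 24 mice, against 1.37 to 2.20 for Eif4a3.

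Eif1 was called in each of the 3 comparisons with a TE call. Its TE was 6.96, 7.50 and 6.54 in WT on day 4, 6.28, 5.47 and 5.03 in B, 4.96, 5.24 and 4.68 in M and 4.04, 4.45 and 3.86 in BM. No B, M or BM mouse reached the lowest WT mouse, and BM lay below M. The log2 change was -0.46 ± 0.11 in M (adjusted p = 0.095) and -0.75 ± 0.13 in BM (adjusted p = 0.0063). On day 10 it was 8.76, 6.95 and 6.58 in WT, 3.29, 3.64 and 3.51 in B, 5.23, 4.82 and 6.003 in M and 3.46, 2.54 and 2.69 in BM, again with WT above all, and the change in BM was -1.39 ± 0.26 (adjusted p = 0.065). Eif1 RNA on that day was 49.5, 64.0 and 70.7 CPM in WT, 121, 91.5 and 99.3 in B and 81.3, 115 and 127 in BM, a rise of 0.76 ± 0.17 in B and 0.80 ± 0.20 in BM, while RPFs fell in both; the RPF call in B was lost when any mouse but B mouse 1 was omitted (-0.36 to -0.27). The call in M on day 4 was lost when any 1 of the 6 mice was omitted (-0.51 to -0.41), and the call in BM on day 10 without any WT mouse or BM mouse 2 or 3. Copies of Eif1 elsewhere in the reference share 98.1% of its 33-base windows, and its counts may include them.

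Eef1g showed the opposite: TE of 0.295, 0.193 and 0.293 in WT, 0.423, 0.350 and 0.358 in M and 0.515, 0.535 and 0.446 in BM on day 4. All M mice were above WT and all BM mice above M, and the change in BM was 0.98 ± 0.17 (adjusted p = 0.0060). Its RNA was not called in any comparison with WT (235 to 344 CPM in WT and 299 to 320 in BM on day 4). For Eef1g too, copies in the reference share 94.5% of the 33-base windows, none of them in genes of the RNA table. Eef1b2, by contrast, also rose in RNA, from 228, 225 and 235 CPM in WT to 484, 549 and 432 in BM (1.09 ± 0.10), and its TE was not called (0.16 ± 0.19).

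On day 10 the TE of several elongation factor genes spread widely between mice of 1 group. Eef2 TE was 0.888, 0.835 and 0.614 in WT and 1.16, 1.11 and 0.595 in B. In M it was 0.135 and 0.117 in the first mice and 0.900 in mouse 3, and in BM 0.974 in mouse 1 and 0.165 and 0.230 in the others. M mice 1 and 2 and BM mice 2 and 3 thus lay below every WT mouse, and the remaining M and BM mice above all of them. Eef1a1 followed the same split, with TE of 0.135, 0.106 and 0.690 in M and 0.642, 0.193 and 0.270 in BM against 0.505 to 0.597 in WT, and so did Eef1b2 (0.170, 0.134 and 0.731; 0.654, 0.180 and 0.242; WT 0.433 to 0.592). WT TE had itself been lower on day 4, at 0.241 to 0.533 for Eef2, 0.203 to 0.377 for Eef1a1 and 0.218 to 0.316 for Eef1b2. The part of that shift in WT in the differences from WT on day 10 was not tested. RNA differed less between the M and BM mice of day 10. Eef1a1 RNA was 9384, 9998 and 7593 CPM in M and 7792, 8091 and 7954 in BM, Eef2 RNA 2144, 2225 and 1620 in M and 1792, 1746 and 1692 in BM, and Eef1b2 RNA 480, 505 and 439 in M and 549, 585 and 569 in BM. M mouse 3, the highest of its group in TE, was thus the lowest in RNA of all 3 genes. Eef2 RNA rose in M by 0.60 ± 0.16, a call lost without WT mouse 3, M mouse 1 or M mouse 2. These 3 mRNAs and those of ribosomal proteins are of the TOP class. Ribosomal proteins took 0.942%, 0.817% and 2.16% of RPF counts in the M mice and 2.84%, 1.47% and 1.63% in the BM mice on day 10, high in the same mice, and the part of that difference between mice in the results was not tested.

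**Figure D4:**
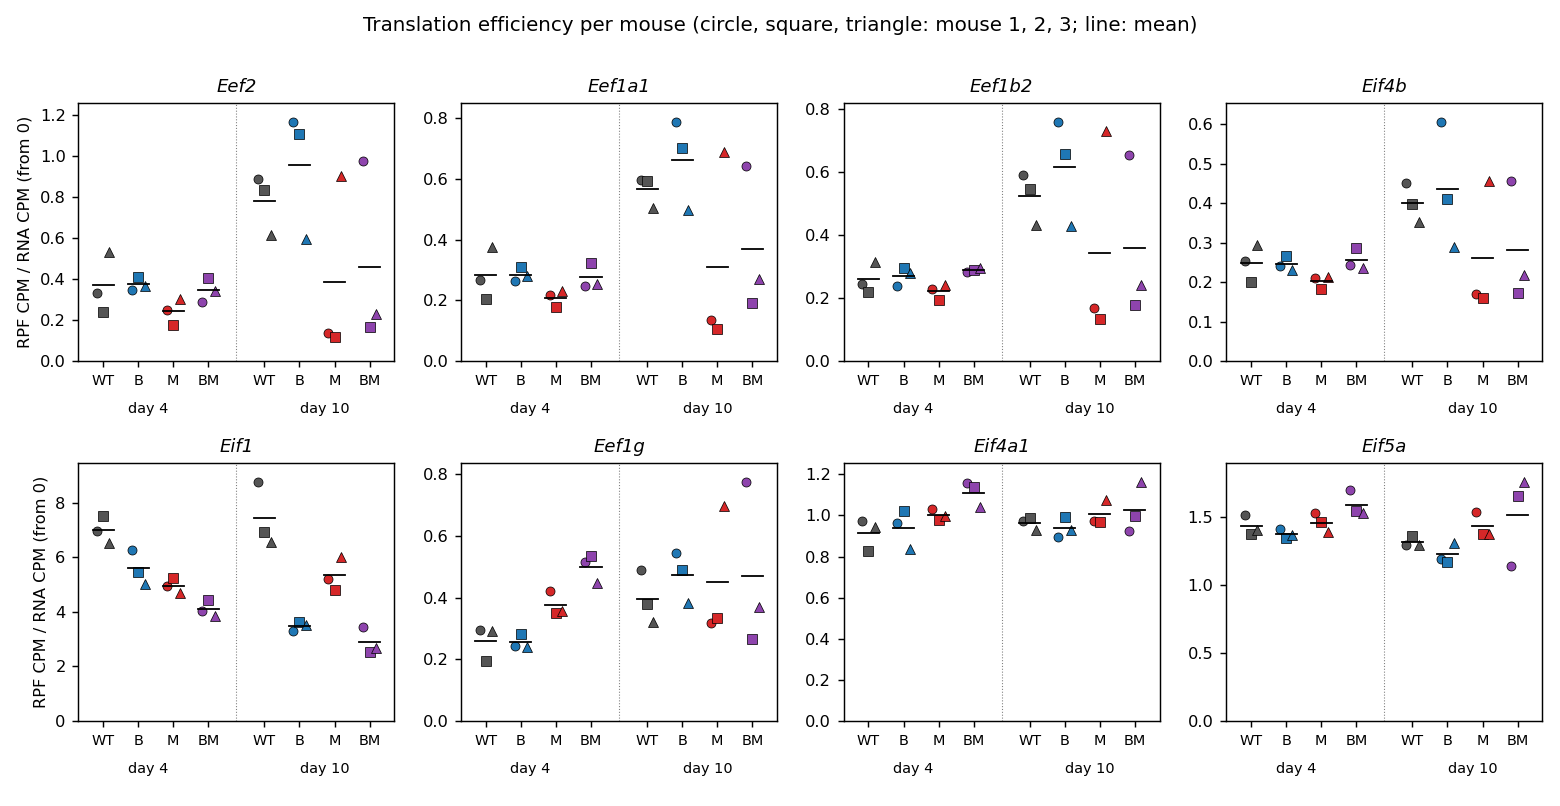
TE (RPF CPM over RNA CPM of the same mouse, y axes from 0) of 8 factor genes by genotype and day; symbols mark mice 1, 2 and 3 and lines the mean of 3. On day 10 M mouse 3 (triangle) and BM mouse 1 (circle) lie far above the other mice of their group for Eef2, Eef1a1, Eef1b2 and Eif4b, and not for Eif4a1 or Eif5a.

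With all mice, Eef2 TE on day 10 changed by -1.22 in M and -0.78 in BM on the log2 scale and was not called. Without M mouse 3, TE of 10 of 53 members was called (1.24% of all genes), all lower in M, among them Eef2 (-2.63), Eef1a1 (-2.23), Eef1b2 (-1.78), Eif4a2 (-1.39), Eif4b (-1.28), Eif3f (-1.16) and Eif3h (-1.12). Without BM mouse 1, TE of 15 of 53 members was called in BM (21.5% of all genes), 5 higher and 10 lower, with Eef2 at -2.0, Eif4a2 at -1.6, Eif1 at -1.50, Eef1b2 at -1.33 and Eef1a1 at -1.31 among the lower and Eif4e (0.75), Eif6 (0.57) and Eif2s1 (0.47) among the higher. RPFs behaved likewise: without M mouse 3, Eef1b2 turned from 0.52 to -0.54 in M, and Eef2 and Eef1a1 reached -1.89 and -1.58. Eef2 and Eef1a1 RPFs in BM reached -1.61 and -0.92 without BM mouse 1. Leaving out these mice was prompted by their values, so the 2-mouse results describe the remaining mice.

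Effects of the genotypes differed between the days for some members. For BM the RPF change on day 10 exceeded that on day 4 for 15 of 54 members and was smaller for 0, where 17.2% of all genes had a higher and 18.6% a lower value. Eif2b3 led (1.83 on the log2 scale), followed by Eif4e3, Eif1ad2, Eif1a and Eif6. Without BM mouse 1 the count was 34 in either direction (57.3% of all genes). In RNA it was 20 of 57, with 0 smaller (13.4% and 16.6% of all genes), and omitting BM mouse 1, 2 or 3 in turn gave 33 (43.5% of all genes), 12 and 11. For M the RPF count was 1, Eif2b3 (0.633% of all genes higher and 0.546% lower), and 14 without M mouse 3 (6.05%); the RNA count was 0 in edgeR and DESeq2 (0.467% and 0.735%), with 7 members at an unadjusted p under 0.05. In TE neither difference gave a call with all mice (0.0% of all genes for M and 0.31% for BM; 0 and 2 members at an unadjusted p under 0.05; 0 in DESeq2), and 7 members were called for M without M mouse 3 (0.723% of all genes) and 9 for BM without BM mouse 1 (13.2%).

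Regulators and termination factors, which the set leaves out, had calls in both directions, as all genes did. In RPFs 9 of 34 rose and 4 fell in M on day 4 (18.5% and 14.7% of all genes), and 4 to 6 rose when WT mouse 1 or 3 or M mouse 1 or 3 was omitted. In BM 11 rose and 5 fell on day 4 (26.2% and 24.7%), and 14 rose and 4 fell on day 10 (24.5% and 22.3%), or 19 and 8 without BM mouse 1, when 66.3% of all genes were called in either direction. The 3 genes of the 4E-BPs, inhibitors of eIF4E that mTORC1 inactivates, did not move alike. Eif4ebp1 had 18.6, 20.6 and 16.2 RPF CPM in WT and 25.4, 26.1 and 25.3 in BM on day 4, and 15.0, 15.1 and 17.7 against 25.4, 29.96 and 28.8 on day 10. Neither pair of groups overlapped, and the rises were 0.50 ± 0.11 and 0.81 ± 0.16. Eif4ebp3 had 36.3, 10.6 and 31.1 CPM in WT and 4.28, 8.58 and 8.47 in BM on day 4, a fall of 1.86 on the log2 scale (SE 0.38). On day 10 it had 15.8, 9.62 and 21.4 CPM in WT and 36.4, 282 and 287 in BM, the largest rise of the list (3.68 ± 0.73). BM mouse 1 lay far below the other BM mice, and no BM mouse overlapped WT on either day. Eif4ebp2 was not called in BM on either day (-0.75 on day 10, where mouse 1 had 45.4 CPM and the others 6.37 and 6.28; -2.36 and called without mouse 1). Eef2k, the kinase that inhibits eEF2, rose in BM on day 4 (0.41 ± 0.16, lost in DESeq2 and without WT mouse 1 or 2 or BM mouse 1 or 3) but on day 10 fell by 1.42 on the log2 scale (SE 0.29), to 3.89, 3.18 and 1.90 CPM from 8.48, 8.90 and 6.61 in WT. Pdcd4, an inhibitor of eIF4A, fell in BM on both days, by 0.61 and 1.42. Eif2ak2, the RNA-activated eIF2α kinase PKR, fell in BM on day 4 by 0.67. Among factors that work beside the members, the recycling factor Abce1 rose by 0.67 and 0.98 in BM, Denr by 0.57 and 1.06, the poly(A)-binding protein Pabpc4 by 1.36 and 1.40, and the diphthamide enzyme Dph5, which modifies eEF2, by 0.46 and 1.66.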

How the data were processed

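RPFs and cytoplasmic RNA were sequenced from each of 24 livers (3 mice in each of 8 groups; GEO lists an individual mouse per sample). The authors trimmed reads with Cutadapt 1.18 and removed duplicate reads by unique molecular identifier. For RPFs they deposited counts per transcript, from fragments aligned with BBmap to the most abundant transcript of each protein-coding gene (GENCODE M27, GRCm39), counted over coding sequence, leaving out 20 codons at its start and 10 at its end. For RNA the authors deposited RSEM 1.3.3 expected counts and TPM per transcript (Bowtie2 2.3.5.1); the expected counts were summed per gene and rounded here.

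The RPF and RNA counts were fitted with edgeR 4.0.16 (R 4.3.3): TMM scaling, filterByExpr (minimum count 10, minimum total 15) and the quasi-likelihood F test, two-sided, with Benjamini-Hochberg adjustment over all genes tested, called at adjusted p under 0.1. TE was the interaction of genotype and library type, without a mouse block in the main fit. Each fit held only the groups compared. CPM in the text were scaled by TMM over the 24 libraries of a type, and standard errors are of the log2 change. Percentages of RPF counts taken by a gene list are of library totals without TMM scaling. The scripts were tested on simulated data. Same-mouse RPF and RNA deviations correlated at 0.243 to 0.649 (24 of 24 above 0.1), so mice pair the libraries; this pairing comes from the labels, which give both libraries to 1 animal. Alternatives were DESeq2's size factors, no filter, DESeq2 1.42.0, a replicate block and leaving out each mouse.

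The members, the other lists and the tests were chosen with earlier results of these data known. Genes were named by a fixed rule: up to 6 largest RPF changes in each direction among those called in M or BM on day 4, all TE calls, the highest member of each role in WT, and Eif4e, Eif4a1, Eif4g1, Eif2s1, Eif5a, Eif6, Eef1a1, Eef2 and Eif4ebp1; others serve as examples chosen after their values were seen. Coding lengths and shared 33-base windows came from GENCODE M39 transcripts, matched to the deposited identifiers without version. RPFs were aligned to coding transcripts alone, so fragments of pseudogene copies could be counted with their parent gene. Deposited RPF files list no transcripts without fragments; these were taken as 0.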

Additional observations from a re-analysis of the deposited data

Results flagged for a closer look

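The results below were selected because the effect of a genotype differed between day 10 and day 4, by edgeR's test of that difference (log2 change on day 10 minus that on day 4, adjusted p under 0.1). Groups of 3 mice are too small for the test of single outlying samples.

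For M, RPFs gave 1 member, Eif2b3 (0.66), which lost its call when most single mice were omitted (0.59 to 0.70). For BM, RPFs gave 15 of 54 members, all higher, where 17.2% of all genes were higher and 18.6% lower; without BM mouse 1 they gave 34 (57.3% of all genes). The eIF2 and eIF2B genes among them were Eif2b3 (1.83), Eif2s1 (0.74), Eif2s3y (0.73) and Eif2b4 (0.47), and the cap-binding genes and partners Eif4e3 (1.78), Eif4e2 (1.01), Eif4g3 (0.77), Eif4enif1 (0.70) and Eif4a1 (0.60). The others were Eif1ad2 (1.74), Eif1a (1.64), Eif6 (1.26), Eef1e1 (0.85), Eif3g (0.59) and Eif3d (0.50). Of these 15, Eif2s3y had been called lower in BM on day 4.

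In RNA, 20 of 57 members differed for BM (13.4% of all genes higher and 16.6% lower), and 33 without BM mouse 1 (43.5%). The eIF3 genes were Eif3j1 (0.66), Eif3g (0.60), Eif3j2 (0.56), Eif3b (0.47), Eif3d (0.46), Eif3e (0.46) and Eif3h (0.35). Eif3j1 and Eif3j2 share nearly all of their coding sequence, so their separate counts are uncertain. The eIF2 and eIF2B genes were Eif2b3 (1.54), Eif2b4 (0.57) and Eif2s3y (0.50), and the eIF1 genes Eif1a (1.17), Eif1ad (0.76) and Eif1 (0.68). Those of the eIF4 group were Eif4enif1 (1.10), Eif4e2 (0.81), Eif4a1 (0.79) and Eif4a3 (0.46), followed by Eif6 (0.93), Eef1e1 (0.65) and Eif5a (0.41). All differences were positive, in RPFs and in RNA. The RPFs of BM mouse 1 on day 10 lay nearest to WT for Eif2b3, Eif2s1 and Eif5a.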

How the results depend on the processing

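No called member reversed direction under any alternative. Counts of called members outside 1.5 times the reported ones were as follows. In DESeq2, RPF B on day 4 gave 0, the RPF day difference of M 3, RNA BM against M 5 and TE B on day 10 1. Without the filter, RPF B on day 4 and TE M on day 4 gave 0, and the RNA day difference of BM gave 12. With the replicate block, RPF B on day 4 and the RPF day difference of M gave 0. In TE the block gave 3 for M and 4 for BM on day 4, 2 for B and 2 for BM on day 10, and 7 for BM against M; it changed no other TE count by that much. Replicate numbers across groups did not pair the RPF or RNA samples (median correlations of -0.0084 and 0.0535), so the block by number there is no paired analysis.

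Leaving out each mouse in turn gave, for RPFs, 0 to 1 for B, 15 to 21 for M and 27 to 31 for BM on day 4, 4 to 13 for B, 7 to 24 for M and 23 to 42 for BM on day 10, 17 to 23 for BM against M, and 0 to 14 and 10 to 34 for the day differences of M and BM. For RNA it gave 0 for B, 12 to 19 for M and 19 to 28 for BM on day 4, 4 to 8, 10 to 28 and 32 to 43 on day 10, 3 to 8 for BM against M and 0 and 11 to 33 for the day differences. For TE it gave 0, 0 to 1 and 2 to 3 on day 4, 0, 0 to 10 and 0 to 15 on day 10, 0 for BM against M, and 0 to 7 and 0 to 9 for the day differences. Why these counts move was not tested beyond the mice named above. Members under about 10 counts a library could not be tested, and which library type limits TE more was not tested.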

Other observations

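Cytosolic ribosomal protein genes, the other large part of the translation machinery, rose in RPFs of the mice with MYC on day 4. There 75 of 80 rose in M and 77 in BM (18.5% and 26.2% of all genes), 0 fell in either, and the median log2 change was 0.62 and 0.84. On day 10 the values depended on single mice. With all mice, 51 of 80 rose in BM (24.5% of all genes; median 0.75) and 1 in M (10.6%; median 0.24). Without BM mouse 1, 51 rose and 3 fell in BM with a median of 0.39, when 66.3% of all genes were called in either direction, and 25 to 32 rose when any 1 WT mouse was omitted. Without M mouse 3, 2 rose and 36 fell in M (24.5% of all genes in either direction), and the median turned to -0.32. In RNA, which rose in both genotypes, 76 of 83 were higher in M on day 10 (8.53% of all genes; median 0.80) and 79 in BM (22.9%; median 1.081), and 0 were lower. Their median TE change on day 10 was -0.59 in M and -0.36 in BM with 0 called. It was -1.21 without M mouse 3, with 71 of 80 lower (1.24% of all genes called), and -0.75 without BM mouse 1, with 69 lower and 1 higher (21.5%).

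The 20 cytosolic aminoacyl-tRNA synthetase genes, whose enzymes charge the tRNAs that eEF1A delivers, had calls in both directions. In RPFs 8 rose and 4 fell in M on day 4 (18.5% and 14.7% of all genes) and 13 rose and 2 fell in BM (26.2% and 24.7%). On day 10, 9 rose and 1 fell in M (10.6% and 8.8%) and 10 rose and 2 fell in BM (24.5% and 22.3%). In M, 3 to 6 rose when WT mouse 1 or 3 or M mouse 1 or 2 was omitted. Without M mouse 3, 10 rose and 2 fell in M (24.5% of all genes called), and without BM mouse 1 12 rose and 3 fell in BM (66.3%). Their median TE change stayed between -0.02 and 0.07 in the comparisons with WT.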
